A study of Mus musculus with 8 samples.

Results

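The young-only regions are stretches of the mouse genome where all 4 hippocampal samples from 6-week-old mice carried a peak of 5-hydroxymethylcytosine (5hmC) and none of the 4 samples from 18-month-old mice did. They were chosen by these peak calls themselves. The peaks of all 8 samples were merged wherever they overlapped by at least 1 bp. Regions on chromosomes 1 to 19 that were narrower than 5000 bp were kept if the peaks in them came from every young and no aged sample. This left 1401 regions of 156744 merged regions in the series, which is 0.897% of the 156254 regions that met the chromosome and width limits. The contrast of young and aged presence was therefore fixed by the choice and was not tested.

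All mice were C57BL/6, and the DNA came from the hippocampus. Young control and young enriched mice are given as 6 weeks old, and aged control and aged enriched mice as 18 months old, with 2 samples in each of the 4 groups. Control mice stayed in standard cages with bedding, food and water. For enriched mice, 5 hours of each day were spent in a roomier chamber with toys, an exercise wheel and tunnels, and this went on for 4 weeks. Whether 2 samples of the same group are 2 mice is not stated, so the spread between them may be technical.

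5hmC is made from 5-methylcytosine by the TET enzymes, which oxidise the methyl group. It serves as a step towards the removal of DNA methylation and also persists as a mark of its own. It is abundant in neurons, where it builds up as the brain matures after birth and lies mostly within genes and at enhancers. The assay glucosylates 5hmC, attaches biotin and captures the labelled fragments, so a peak is a place where such fragments piled up. A missing peak means that the pile-up did not pass the peak caller's limit, not that the mark was absent, and a smaller share of cells with the mark cannot be told apart from less of it per cell. The mark's strand and its level at each cytosine are not given by this method. Genes and bases at the regions were not analysed here.

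Each list held 25548 to 78980 peaks, and the number of reads behind a list is not known. The aged enriched lists were the shortest, with 25548 and 30832 peaks. The list of aged enriched replicate 2 stood apart, with a median peak width of 430 bp against 650 to 952 bp elsewhere. A peak's score is the authors' own value, which the caller MACS writes as −10 times the log10 of the peak's p-value. Scores in it were also high, with 72.4% at 100 or above where the other lists had 9.92% to 31.9%. Applied to the remaining lists, the rule gave 1863 young-only regions without this sample, 1704 without aged enriched replicate 1 and 2289 without both. Each list left out takes 1 condition off the rule. The length of the lists moves with age only in part. Aged control replicate 1, with 59260 peaks, was longer than young control replicate 1 (43709) and young enriched replicate 1 (57492). The other aged lists were shorter than every young list. The part of list length in the number of young-only regions was not tested.

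The number of young-only regions changed with the lists more than with the way of merging. With every list limited to its 25548 highest-scoring peaks, 436 regions had a peak in all young and no aged lists, and 37 had the reverse. In the lists as deposited, the reverse pattern was met by 15 regions, which is 0.0096% of the regions within the limits. That number also hung on the aged lists: it was 43 and 85 without aged control replicates 1 and 2, and 102 and 169 without aged enriched replicates 1 and 2. Without both aged enriched lists, 1406 regions had a peak in the remaining 2 aged and no young lists, against 2289 of the young-only kind. Of the 1401 young-only regions, 173 overlapped one of the 436. Limiting all lists to scores of at least 100 gave 360 regions, and 1 of the reverse pattern. That limit kept 72.4% of the peaks of aged enriched replicate 2 and 9.92% to 31.9% of those of the other lists. The regions with a peak in every young list also became fewer under these limits, so that the 436 were 6.74% of 6473 and the 360 were 10.9% of 3292, against 9.19% of 15240 in the lists as deposited. Limiting the young lists alone gave 27 of 3271 (0.825%), and 190 regions of the reverse pattern. There a peak of any score in an aged list still removed a region, as in the lists as deposited, while young peaks had to reach a score of 100. For the reverse pattern, only young peaks of at least that score removed a region. Leaving out a list also takes 1 condition off the rule, so more regions can pass, for this pattern and for the reverse. The number of young-only regions rose by more than 1.5 times in 5 such cases. It was 3501 without young control replicate 1, 2543 and 2440 without young enriched replicates 1 and 2, and 3293 and 2173 without aged control replicates 1 and 2.

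The 10 leading young-only regions were those whose peaks ranked highest in the young list where they ranked lowest. They lay on 8 chromosomes, were 1228 to 2526 bp wide and had scores of 111 to 348. Scores of different lists are not on a common scale, so which list is higher is given as a description of the deposited values. First was a region of 1758 bp on chromosome 6 at 144288225 to 144289982 (mm9, as are all positions here). Its peak had a score of 164 and 348 in young control replicates 1 and 2, and 186 and 232 in young enriched replicates 1 and 2. The control and enriched scores overlapped, and in each list the peak ranked at or above 94.2% of all peaks. The nearest aged peak lay 1.68 kb away, in aged control replicate 1, with a score of 101.

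A region on chromosome 15 at 27754576 to 27756189 had control scores of 176 and 219 and enriched scores of 147 and 170. Here both control scores were above both enriched scores. A further region on that chromosome, at 36415175 to 36417136, had scores of 167 and 177 in control and 146 and 235 in enriched lists, which overlapped. Both lay close to aged peaks. The first was 40 bp (0.040 kb) from a peak of aged control replicate 1 with a score of 95, and the second 0.125 kb from a peak of aged control replicate 2 with a score of 63.1.

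On chromosome 18 at 65762762 to 65764672 the scores were 123 and 274 in control and 320 in enriched replicate 2, with 161 in enriched replicate 1. The replicates of each housing group thus differed more than the groups did. The region on chromosome 6 at 97125444 to 97126976 had 136 and 148 in control and 167 and 181 in enriched lists, so both enriched scores were above both control scores. It was the leading region farthest from any aged peak, at 17.1 kb. The region on chromosome 4 at 148779513 to 148780740 had scores of 149 and 194 in control and 120 and 181 in enriched lists, and lay 0.028 kb from an aged control replicate 1 peak with a score of 201. That neighbouring peak scored higher than the young peaks in the region itself.

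The other 4 leading regions had scores of 111 to 206. Both control scores were above both enriched scores on chromosome 2 at 119904969 to 119906839 (184 and 153 against 130 and 118). By percentile within each list the groups overlapped there (95.9 and 87.4 against 88.1 and 83.4). On chromosome 8 at 92827103 to 92829339 both control scores were above both enriched scores (152 and 183 against 112 and 135). The percentiles there were in the same order (92.7 and 92.0 against 82.0 and 88.4). The housing groups overlapped in the regions at 53737470 to 53739070 of chromosome 7 and at 90488233 to 90490758 of chromosome 16. On the latter chromosome the nearest aged peak, in aged enriched replicate 1, was 0.068 kb away. Of the 10 leading regions, 5 had an aged peak within 1 kb and 9 within 5 kb.

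**Figure D1:**
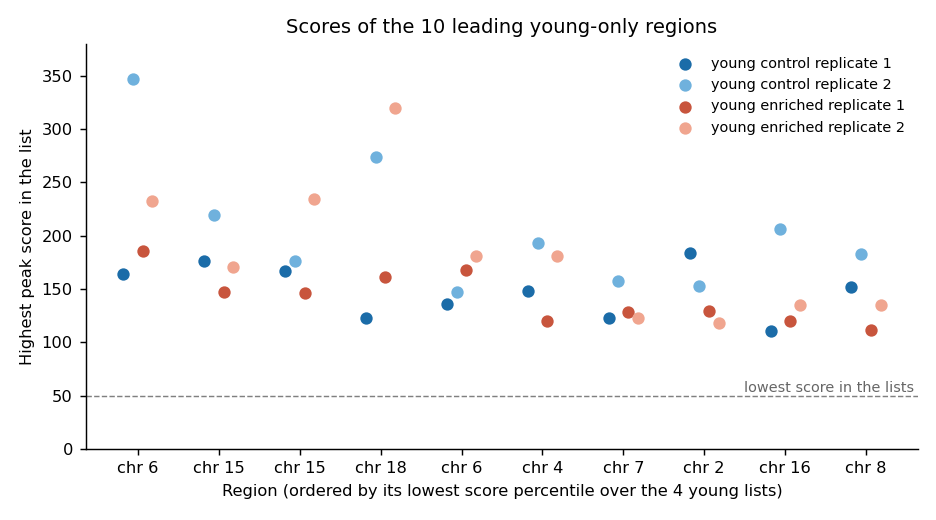
Highest peak score (y axis) of the 10 leading young-only regions (x axis, by chromosome) in each of the 4 young lists, 1 point per list; the dashed line marks a score of 50, the lowest in the young lists. All 40 points lie between 111 and 348, and control (blue) and enriched (red) points mostly intermix.

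Most young-only regions had modest peaks. The median score of a region's highest peak was 71.2 in young control replicate 1, 91.9 in replicate 2, 78.4 in young enriched replicate 1 and 80.3 in replicate 2. Over all peaks of those lists the medians were 71.0, 78.7, 71.5 and 72.9 in the same order. The young-only regions thus sat near or somewhat above the middle of each list, at a median percentile of 50.2, 62.4, 58.5 and 58.9 (mean 57.5 ± 5.14, SD, n = 4 lists). The highest score was 376, at percentile 99.6 of the list of young control replicate 1, in which scores reached 1238.

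Many of them had a peak close to the caller's limit in at least 1 of the 4 young lists. The lists begin at a score of 50.0, and 778 of the 1401 regions (55.5%) had a score below 60 in at least 1 young list. The lowest of a region's 4 scores had a median of 58.4. The same 2 values were not computed over all regions with a peak in every young list. They are therefore not read as a trait of the young-only regions. Below 60 were 26.8% and 11.5% of the regions in young control replicates 1 and 2, and 20.6% and 18.5% in young enriched replicates 1 and 2. The lower quartile of their scores sat at percentile 28.1, 42.0, 33.4 and 35.7 of those lists, in the same order. Scores this low were thus no more common in the young-only regions than among all peaks of a list. Many of those peaks are not shared by the 4 young lists. Among the 15240 regions with a peak in all 4 young lists, the young-only regions ranked low, with median ranks of 23.3 to 29.2% per list. A score of 100 or more was reached in no young list by 477 regions, in 1 list by 460, in 2 by 307, in 3 by 131 and in all 4 by 26. Those 26 were spread over 15 chromosomes, with a median width of 1535 bp, and were 0.806% of the 3224 regions of all young lists that reached this score in each. No such share was computed for the counts at fewer than 4 lists. An aged peak lay within 1 kb of 11 of the 26 and within 10 kb of 25.

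The rule asks for peaks of all 4 young lists in 1 merged region, so the closeness of those peaks follows in part from the choice. It is described here without a comparison set. In 1298 regions (92.6%) each young list had exactly 1 peak, and the most in 1 region was 3 peaks, in young control replicate 2. The midpoints of the strongest peaks of the 4 lists spanned a median of 181 bp (quartiles 110 and 351). In 1328 regions (94.8%) those 4 peaks shared a common stretch, with a median length of 696 bp (quartiles 604 and 814). In the other 73 regions the peaks were joined end to end by overlaps, with no stretch under all 4.

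The strength of the peaks agreed weakly between lists in the young-only regions. Over the 1401 regions, Spearman's rho of score ranks between pairs of young lists ran from 0.124 to 0.259. Over the 15240 regions with a peak in all 4 young lists it ran from 0.382 to 0.524. These are descriptions across regions of the same lists, and the young-only regions span a narrower range of scores. The 2 pairs of the same housing had 0.172 and 0.150, within the range of the other 4 pairs.

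The width of a merged region counts the peaks of every list in it, so it can only grow where aged peaks are present. The young-only widths ran from 621 to 3899 bp with a median of 1245 bp, and together they covered 1918 kb. The median of all peaks in them was 914, 990, 897 and 941 bp in young control replicates 1 and 2 and young enriched replicates 1 and 2. In the whole lists it was 920, 952, 865 and 915 bp, so single peaks were about as wide as in the whole lists. Next to the other regions with a peak in all 4 young lists, fewer bases lay under the peaks. The median per young-only region was 924, 1004, 901 and 950 bp, in the same order of lists. It was 987, 1124, 960 and 1017 bp with a peak in 1 aged list, and 1594, 2075.5, 1655.5 and 1724 bp in all 4. Aged peaks that join young peaks can raise these latter values. The width limit removed none: the widest young-only region, on chromosome 2 at 166944980 to 166948878, was 3899 bp wide, and 0 regions of 5000 bp or more had the pattern. The next regions past the limit with a peak in every young list, at 5000 to 5010 bp, had a peak in 2 to 4 aged lists.

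To place them among their nearest neighbours, the 15240 regions with a peak in all 4 young lists were divided by the number of aged lists with a peak. Young-only regions were 9.19% of them. With 1 list, and so 1 condition of the rule, left out, this share went to 21.4% without aged control replicate 1. It was 14.7% without young control replicate 1 and 14.2% without aged control replicate 2. A further 3359 had a peak in 1 aged list, 4641 in 2, 4009 in 3 and 1830 in all 4. Scores were ranked among these 15240 regions within each young list, as a percent. The median rank of young-only regions was 29.2 and 23.3 in young control replicates 1 and 2 and 29.0 and 28.7 in young enriched replicates 1 and 2. Its mean was 27.6 ± 2.87, against 36.3 ± 1.76 with a peak in 1 aged list, 48.7 ± 0.326 in 2, 61.4 ± 0.763 in 3 and 78.8 ± 2.01 in all 4 (SD, n = 4 young lists each). The span from the first to the last base of the young peaks in a region leaves out the outer ends of aged peaks. It is not free of them, since an aged peak can join young peaks that do not overlap. The median span rose along the same order, from 1245 to 1411, 1624, 1940 and 2423 bp, and how much such joining added was not tested.

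**Figure D2:**
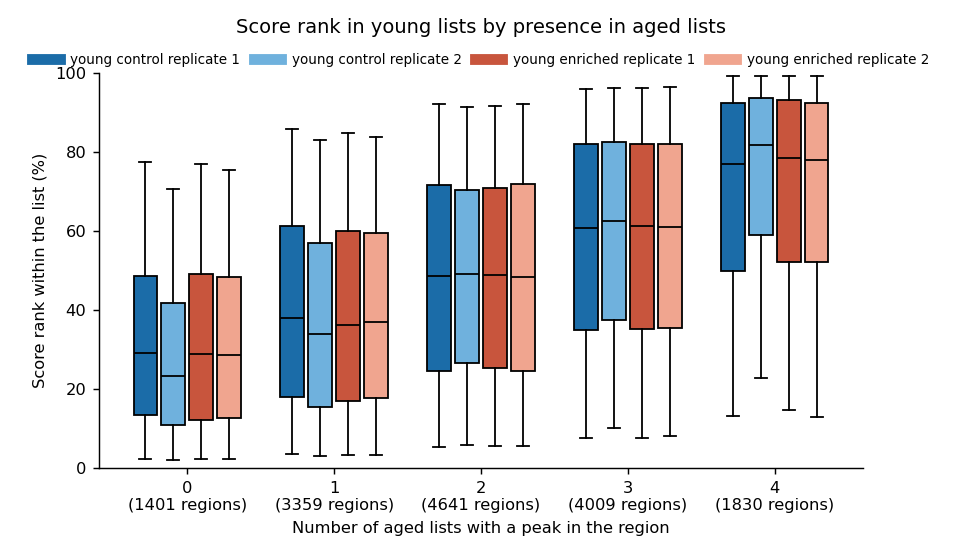
Rank of a region's score within each young list (y axis, percent, among the 15240 regions of all 4 young lists) by the number of aged lists with a peak there (x axis). Boxes span the quartiles with the median as a line, whiskers run from percentile 5 to 95, and colours mark the 4 young lists. In every list the medians climb from 23.3 to 29.2 at 0 aged lists to 77.0 to 81.6 at 4.

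The same order held when the regions were divided by rank. In the lowest decile of the mean rank over the 4 young lists, 399 of 1524 regions were young-only, or 26.2% (95% exact Clopper-Pearson interval 24.0% to 28.5%, counting error only). In decile 5 they were 7.61% (6.33% to 9.06%). In decile 10 they were 3 of 1524, or 0.197% (0.041% to 0.574%). Deciles 1 to 4 together held most of the young-only regions, with 28.5%, 21.3%, 15.3% and 12.7%. By the span of the young peaks, young-only regions were 22.9% of 1374 regions under 1000 bp and 0.859% of 1746 regions from 3000 to 5000 bp. Aged peaks that join young peaks can lengthen this span too. The part of score and width in the absence of aged peaks was not tested.

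**Figure D3:**
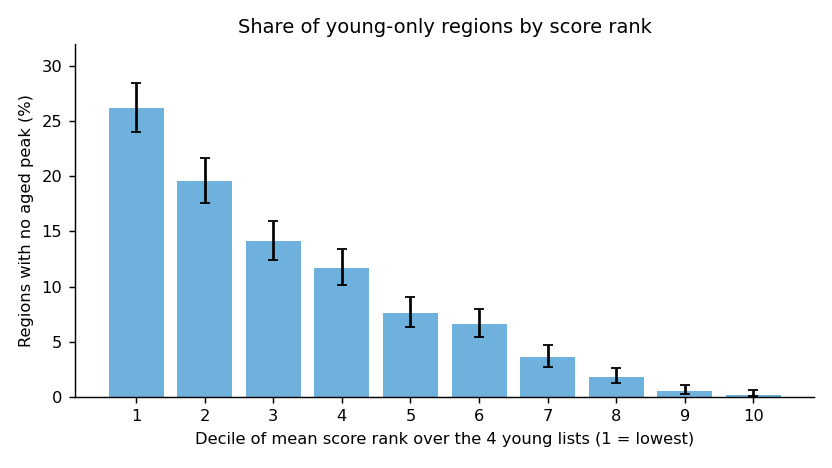
Percent of the regions of all 4 young lists that had no aged peak (y axis) in each decile of mean score rank over those lists (x axis); error bars are 95% exact binomial intervals. Bars fall from 26.2% in decile 1 to 0.197% in decile 10.

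Aged control replicate 1 allows a comparison at like list length, since its 59260 peaks match the 57492 and 59462 of the young enriched lists. Of 27837 regions with a peak in both young control lists, young enriched replicates 1 and 2 had a peak in 68.6% and 70.5%. Aged control replicate 1 had one in 62.0% and aged control replicate 2, with 38000 peaks, in 46.1%. Aged enriched replicates 1 and 2 had 29.1% and 28.4%. With 1 aged list of that length, this difference has no replicate check.

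Regions 1 step outside the rule were more numerous than the young-only regions themselves. A peak in 3 young and no aged lists was found in 4642 regions, of which 2080 lacked young control replicate 1, the shortest young list, and 420 lacked young control replicate 2, the longest. Among the 3359 regions with a peak in all young and exactly 1 aged list, that list was aged control replicate 1 in 1843 (54.9%) and aged control replicate 2 in 760. It was aged enriched replicate 1 in 295 and replicate 2 in 461. Both counts followed the lengths of the lists.

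Of the young-only regions, 1 abutted an aged peak without sharing a base with it. The aged lists together held 153640 peaks, and distances from other regions or positions are not given here. The distances below are therefore not read as a trait of the young-only regions. The nearest peak lay at a median distance of 4.47 kb in aged control replicate 1, 7.58 kb in aged control replicate 2, 11.7 kb in aged enriched replicate 1 and 9.91 kb in aged enriched replicate 2. Longer lists had nearer peaks. Taking the aged lists together, the median was 2.34 kb (quartiles 0.831 and 6.08 kb). An aged peak lay within 100 bp of 46 regions (3.28%), within 1 kb of 421 (30.1%, median score of those peaks 71.1) and within 10 kb of 1178 (84.1%). When peaks within 500 bp of each other were merged, 1179 regions were young-only, and 1094 of the 1401 overlapped one of them.

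**Figure D4:**
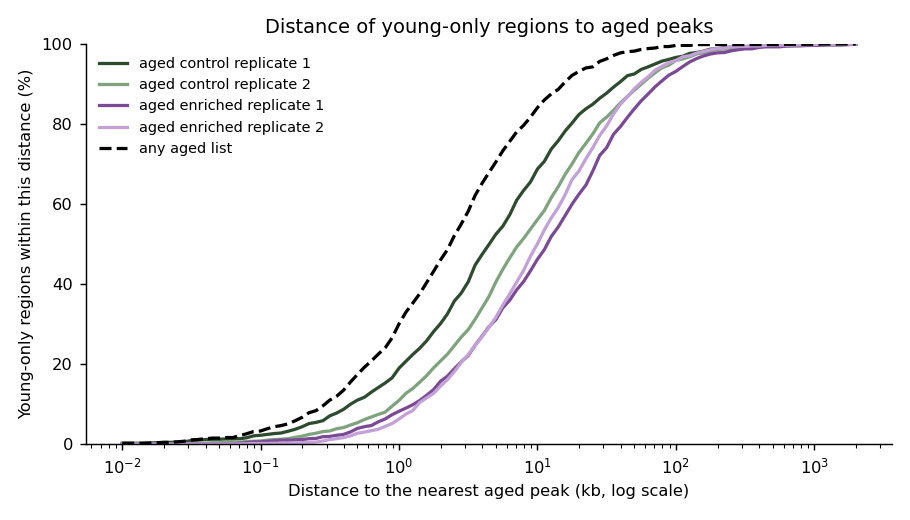
Percent of the 1401 young-only regions (y axis) that lay within a given distance (x axis, kb, log scale) of the nearest peak in each aged list, and in any of them (dashed). The curve for aged control replicate 1 is leftmost of the single lists, and 30.1% of regions had an aged peak of some list within 1 kb.

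A few young-only regions were isolated from aged peaks. Only 5 (0.357%) lay more than 100 kb from every aged peak. The farthest, on chromosome 3 at 7441663 to 7442653, was 1101 kb from the nearest, with scores of 60.2 and 91.6 in young control and 50.4 and 52.7 in young enriched lists. The next, on chromosome 10 at 112272451 to 112273454, was 567 kb away, with scores of 60.6 and 80.5 in control and 56.2 and 55.1 in enriched lists. In both, the control scores as deposited were above the enriched scores. Their percentiles within each list were not compared, so the order by rank is not given here. These 5 and the windows and runs below were singled out after their values were seen.

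Young-only regions were spread over all 19 autosomes, from 35 on chromosome 18 to 113 on chromosome 5. Per 10 Mb they ran from 3.80 on chromosome 7 to 7.89 on chromosome 11. As a share of the regions of all young lists, chromosome 13 was highest, with 85 of 569, or 14.9% (95% exact Clopper-Pearson interval 12.1% to 18.1%, counting error only). The other 18 chromosomes ran from 6.41% on chromosome 15 to 11.3% on chromosome 6. The intervals of chromosomes 7 (6.80%), 15 and 18 (6.67%) lay below the 9.19% of all autosomes, with upper ends of 8.70%, 8.34% and 9.15%. That of chromosome 13 lay above it. The intervals make no allowance for looking at 19 chromosomes, and they count neighbouring regions as separate. Regions of 1 chromosome come from the same 8 lists, so these intervals do not cover differences between samples.

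Regions of chromosome 13 lacked a peak at a high rate in each aged list. Of its regions of all young lists, 35.1% lacked a peak in aged control replicate 1 and 67.8% in aged enriched replicate 2, the highest of the 19 autosomes in each. In aged control replicate 2 it was 48.3% (range over autosomes 36.1% to 48.4%) and in aged enriched replicate 1 65.4% (58.6% to 65.8%). Its regions also had the lowest mean rank in the young lists, 46.3. Below the median rank, 23.3% of chromosome 13 regions were young-only against 15.5% on the other autosomes, and above it 4.69% against 2.49%. The excess over all autosomes changed with the lists. In equally long lists chromosome 13 had 16 of 211 (7.58%) against 6.74%. With scores of at least 100 in all lists it had 17.0% against 10.9%, with peaks within 500 bp merged 14.1% against 8.58%, and without aged control replicate 1 27.9% against 21.4%.

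**Figure D5:**
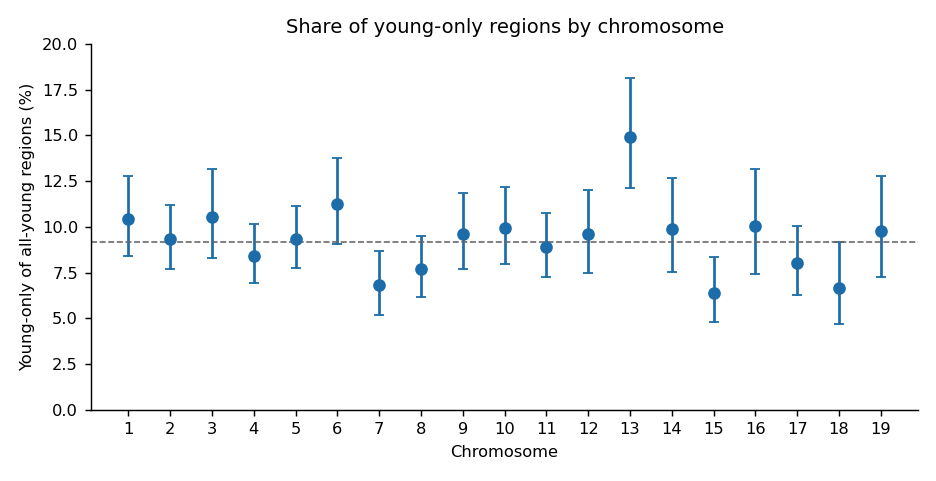
Young-only regions as a percent of the regions with a peak in all 4 young lists (y axis), by chromosome (x axis), with 95% exact binomial intervals; the dashed line is the overall 9.19%. Chromosome 13 lies highest at 14.9%, and chromosome 15 lowest at 6.41%.

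Young-only regions lay where regions were somewhat less dense. A median of 126 other merged regions lay within 500 kb of them (quartiles 86 and 166), against 138, 145, 152 and 159 for regions of all young lists with a peak in 1, 2, 3 and 4 aged lists. The last 10% of a chromosome, measured up to its last peak, held 17.8% of young-only regions and 25.4% of those in all 8 lists. The first 10% held 4.50% and 3.93%. Density and distal position thus followed the same order as score and width.

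The median distance to the next young-only region was 251 kb. Another lay within 10 kb of 66 regions (4.71%) and within 50 kb of 242 (17.3%). Of 1582 windows of 1 Mb with a region of all young lists, 834 held a young-only region, 481 of them just 1. The other 353 windows held 920 of the 1401 regions. The most was 6, at 59 to 60 Mb of chromosome 2, where there were 36 regions of all young lists. At 166 to 167 Mb of chromosome 1, all 5 regions shared by the young lists were young-only.

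Those 5 regions of chromosome 1 had moderate scores. These are set side by side as deposited, and their percentiles within each list were not compared. The first, at 166258015 to 166258813, had 71.0 and 99.0 in young control and 102 and 75.2 in young enriched lists. The third, at 166303095 to 166305090, had 75.9 and 116 in control and 50.0 and 86.4 in enriched lists, which overlapped as in the first. In the second, at 166274376 to 166275768, both control scores (128 and 63.4) were above both enriched scores (57.5 and 58.1). The same held for the last, at 166734090 to 166735173, with 109 and 100.2 against 58.8 and 72.0. In the fourth, at 166368046 to 166369406, the scores overlapped, with 59.3 and 111 in control and 112 and 57.3 in enriched lists. Aged lists were not empty in that window. They held 12, 11, 8 and 13 peaks in aged control replicates 1 and 2 and aged enriched replicates 1 and 2, against 14, 22, 21 and 21 in the young lists in the same order. Per 10000 peaks of a list the aged lists ranged from 2.02 to 4.22 and the young lists from 2.79 to 3.65, so relative to list length the groups overlapped. At 81 to 82 Mb of chromosome 17, where 5 of 13 regions of all young lists were young-only, they did not: the aged lists had 4.47 to 6.81 and the young lists 7.32 to 9.37 peaks per 10000. It was the only window counted in this way where they did not. At 44 to 45 Mb of chromosome 13, for example, the aged lists had 7.09 to 12.5 and the young lists 8.23 to 9.74. These windows were picked for holding many young-only regions. By the rule, each such region adds a peak to every young list and to no aged list. Fewer aged peaks in these windows thus follow in part from the choice and are not read as a result. Not all of the 14 windows with 5 young-only regions were counted in this way.

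Among runs of young-only regions no more than 50 kb apart, the one with most members lay on chromosome 6 at 112768069 to 112809002, with 4 in 40.9 kb. At its left end, the region at 112768069 to 112769147 had scores of 69.8 and 75.4 in young control and 92.6 and 114 in young enriched lists. At its right end, the region at 112807872 to 112809002 had 86.5 and 96.4 in control and 68.3 and 104 in enriched lists. As deposited, and with no percentiles compared, the enriched scores were the higher in the first and the groups overlapped in the last. The other region of all young lists inside the run had a peak in aged control replicate 1 as well, with a score of 67.4, and the nearest aged peaks of the 4 regions were 0.082 to 4.97 kb away. Runs of 3 members spanned up to 88.2 kb, on chromosome 9.

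Housing was not used by the rule, and the design asks whether an enriched environment alters 5hmC. Within the young-only regions, enriched and control lists overlapped in rank. Both enriched ranks were above both control ranks in 242 regions (17.3%), beside 16.4% over the 15240 regions of all young lists. Both were below in 188 (13.4%), beside 15.9%. The mean rank was 32.3 in enriched and 30.6 in control lists, and the median difference within a region was 1.73 rank points. The medians of the 2 control lists (29.2 and 23.3) differed by more than that. A comparison of 2 samples with 2 has 3 splits and cannot go below an exact permutation p of 0.333, so no test was made.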

How the data were processed

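Hippocampal DNA of 8 samples was enriched for 5hmC by glucosylation, biotin labelling and capture, and sequenced, per the labels' protocols. Per the submitters' processing notes, the tools were MACS 1.4.2, Bowtie 0.12.9 and CASAVA 1.4, on build mm9. The authors deposited 1 peak list per sample with positions and a score for each peak. The lists number their peaks separately, so peaks were called in each sample alone. Read depth, caller settings and any background library are unknown from the labels used here, so no interval that needs reads was computed.

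Here peaks were pooled and merged with pandas 2.3.3. The titles gave each sample's age and housing. Scores were ranked only within a list, or among the same regions in each list. Named regions were the 10 members with the highest value of their lowest score percentile over the young lists. The merging and distances were tested on simulated data. The regions, gene lists and comparisons were chosen with earlier results of these data known. The reference tables given are of build GRCm38, which differs from the lists' build. Gene position, base composition, sequences and the planned gene and marker lists were therefore not analysed here. Starts are printed counted from 1.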

Additional observations from a re-analysis of the deposited data

How the results depend on the processing

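The number of young-only regions went from 1401 to 360 with scores of at least 100 in all lists, 27 with that limit in the young lists alone and 436 in equally long lists. Leaving out 1 sample gave 1704 to 3501 regions, the most without young control replicate 1, and leaving out both aged enriched samples, a setting chosen after seeing the data, gave 2289. Each sample left out also takes 1 condition off the rule, so more regions can pass. Their median width went from 1245 to 1742, 1535 and 1559 bp under the same first 3 settings and to 1338 bp with peaks within 500 bp merged, and ran from 1128 to 1364 bp with 1 sample left out. The mean percentile of their scores in the young lists, 57.5, ran from 51.95 to 63.6 with 1 sample left out. The mean over aged lists of the median distance to an aged peak went from 8.41 to 29.8 kb with scores of at least 100 in all lists and to 4.27 kb with that limit in the young lists alone. The causes were not tested. Asking for 200 bp under peaks, or dropping the width limit, left 1401 regions. In each of the 15 alternatives the share of young-only regions was higher below than above the median score rank. Other settings for gene position and base composition were not run. No paired analysis was possible because no result comes from a test, and the replicate numbers only name samples. Depth is unknown, so absence of a peak is not absence of 5hmC.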
